A study of Mus musculus with 8 samples.

Results

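Genes that mark eosinophils, basophils and mast cells were followed in RNA from the total bone marrow (BM) of 8 C57Bl6 mice. The 10 members were listed by name as markers of these cells, among the 41214 genes counted in each mouse, and all 10 had counts in every library and passed the filter on low counts in every comparison. The mice formed 4 groups of 2. Young KD mice (39 and 42 days) and sick KD mice (187 and 78 days, labelled as having AML) carry the human GFI1 gene in place of mouse Gfi1 at a reduced level of expression. The paper calls the disease of sick KD mice myeloproliferative, with progress to leukemia possible once further mutations are added. Young KO mice (48 and 44 days) and old KO mice (158 and 101 days), healthy per the labels, lack functional Gfi1. No group here had a normal level of Gfi1, so each comparison is between 2 altered genotypes or 2 states of the same genotype, and in the KD mice age and disease cannot be told apart. In old KO against sick KD, and so in the interaction that uses it, genotype and disease differ at once and cannot be told apart either. The comparisons ask how the low Gfi1 level differs from its absence, in young marrow and in old or sick marrow.

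Eosinophils, basophils and mast cells are rare granulocytes that fight parasites and drive allergy. Eosinophils fill their granules with toxic cationic proteins. Basophils and mast cells carry proteases in theirs and bind IgE on their surface through a receptor built of alpha, beta and gamma chains. All 3 cell types arise in the marrow from progenitors that use the GATA transcription factors, with C/EBP factors acting at the eosinophil and basophil branch. Gfi1 is a transcriptional repressor that neutrophils need in order to mature.

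The 8 libraries held 26642067 to 42679114 counts on genes, and the members had between 213 and 21953 counts per library, so that the counting error of the lowest member value was 6.85%. Levels are given as CPM, the count scaled to the library size, after TMM normalization, with n = 2 mice per group. Mouse Gfi1 itself was counted at 6.17 and 7.03 CPM in young KD, 14.0 and 14.4 in young KO, 5.49 and 7.15 in sick KD and 13.3 and 29.7 in old KO. It was thus higher in the libraries labelled KO, and a count over the whole gene does not show which part of it the reads came from. Sick KD libraries had 38.8% and 42.0% of their uniquely aligned reads assigned to no gene feature, against 26.9% to 33.8% in the others. Such reads can include reads from introns and need not lie outside genes. Their part in the results was not tested. In bulk marrow, fewer cells of a type and less RNA per cell cannot be told apart.

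The sequences of the eosinophil-associated ribonucleases are shown first, because their likeness bears on how reads could be assigned to each gene. Ear1, Ear2 and Ear6 lie on chromosome 14 and encode secreted ribonucleases of eosinophil granules. The first 90 bases of each coding sequence (GENCODE M21, each within a single coding exon) follow, with capitals where Ear2 or Ear6 differs from Ear1.
Ear1 (GRCm38, chr14:43819320-43819409, minus strand): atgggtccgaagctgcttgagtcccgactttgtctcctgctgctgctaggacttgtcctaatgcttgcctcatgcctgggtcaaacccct
Ear2 (GRCm38, chr14:44102887-44102976, plus strand): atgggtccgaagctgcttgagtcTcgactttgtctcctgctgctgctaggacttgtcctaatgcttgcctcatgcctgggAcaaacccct
Ear6 (GRCm38, chr14:51853998-51854087, plus strand): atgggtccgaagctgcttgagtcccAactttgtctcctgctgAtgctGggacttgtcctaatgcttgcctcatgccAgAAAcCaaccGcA
Over the whole coding sequence, of 468 bases in Ear1 and Ear6 and 471 in Ear2, Ear1 was identical to Ear2 at 95.1% of aligned positions and to Ear6 at 87.4%. Of all 50-base stretches in the longest transcript, 57.4% of Ear1, 41.5% of Ear2 and 1.07% of Ear6 also occurred in another gene, mostly other Ear genes and pseudogenes. At 100 bases the shares were 23.9%, 13.9% and 0%. The levels of Ear1 and Ear2 are therefore uncertain, since reads that align to several places were set aside in counting, while the Ear6 count rests almost entirely on sequence of its own. In the other members the share was 0%, except Ms4a2 at 2.69% of 50-base stretches. Alignments set aside as not unique were not equal between groups. Sick KD had 45056950 and 56501078 of them, beside 26642067 and 30139409 counts on genes. Old KO had 29299324 and 43878371, beside 27515379 and 39308657 counts on genes. The part of this in the Ear1 and Ear2 values was not tested.

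The likeness of Ear1 and Ear2 reached into their promoters. The 150 bases before each start site (RefSeq) are given with no capitals, because the 148 bases that align between them were the same at all 148 positions.
Ear1 (GRCm38.p6, chr14:43819640-43819789, minus strand): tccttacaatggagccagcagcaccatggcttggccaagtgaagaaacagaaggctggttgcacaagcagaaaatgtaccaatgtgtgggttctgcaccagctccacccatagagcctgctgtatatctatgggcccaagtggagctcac
Ear2 (GRCm38.p6, chr14:44102504-44102653, plus strand): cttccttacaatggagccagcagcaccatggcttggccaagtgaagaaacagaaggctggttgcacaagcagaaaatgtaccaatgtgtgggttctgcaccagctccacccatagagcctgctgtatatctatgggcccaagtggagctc
The promoters of the 9 members with an entry were searched for AGATAA, a form of the letters that GATA factors bind, on both strands over the 250 bases before the RefSeq start. It was found in 4 of the 9 (Prg2 had no entry): Fcer1a, Cpa3, Prss34 and Ms4a2. Of all 32851 promoters searched, 9.99% held it. The nearest 150 bases of these 4 are shown, with AGATAA, or TTATCT where it lies on the other strand, in capitals.
Fcer1a (GRCm38.p6, chr1:173227230-173227379, minus strand): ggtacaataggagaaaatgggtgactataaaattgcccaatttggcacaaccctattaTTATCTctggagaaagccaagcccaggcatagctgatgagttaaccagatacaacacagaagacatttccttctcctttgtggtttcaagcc
Cpa3 (GRCm38.p6, chr3:20242182-20242331, minus strand): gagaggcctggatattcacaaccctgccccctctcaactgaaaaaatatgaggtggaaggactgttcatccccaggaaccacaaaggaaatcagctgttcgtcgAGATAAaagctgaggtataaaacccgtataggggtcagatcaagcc
Prss34 (GRCm38.p6, chr17:25298244-25298393, plus strand): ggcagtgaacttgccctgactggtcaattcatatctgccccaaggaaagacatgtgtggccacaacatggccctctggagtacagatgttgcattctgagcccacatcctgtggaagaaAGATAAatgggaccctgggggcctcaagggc
Ms4a2 (GRCm38.p6, chr19:11623720-11623869, minus strand): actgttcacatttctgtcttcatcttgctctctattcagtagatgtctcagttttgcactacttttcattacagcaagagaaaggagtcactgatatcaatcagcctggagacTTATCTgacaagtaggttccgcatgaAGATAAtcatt
A match describes these letters and is not a binding site. The 4 genes that hold it include both Prss34, which was higher in old KO than in sick KD, and Cpa3, which did not pass that test.

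Per kilobase of exon, Prg2 had the highest level of the 10 in every group, at 305 CPM per kb in young KD, 381 in young KO, 257 in sick KD and 714 in old KO. Prg2 encodes major basic protein, the core of the eosinophil granule. Prss34, a basophil serine protease, came second on the same scale, with 104, 109, 73.2 and 155 CPM per kb in those groups. Ms4a2, the beta chain of the IgE receptor, had the lowest level, with 5.34, 5.99, 4.59 and 7.31 CPM per kb. Eosinophil and basophil transcripts were thus both well measured in this marrow. Mast cell genes were mostly not: of 13 granule and receptor genes, 7 (Tpsab1, Tpsb2, Tpsg1, Mcpt9, Mrgprb2, Mrgprx2 and Tph1) had 0 counts in all 8 libraries, and Mcpt1, Mcpt2 and Mcpt4 had at most 2 counts in any library. A count of 0 allows up to 3 counts in a library. Cma1, a mast cell chymase, had 1 to 8 counts. The 2 others were well measured and are used by other cells too: Kit, also on progenitors, had 1125 to 2042 counts, and Slc18a2, the monoamine transporter that loads granules, had 82 to 238. Cpa3, Ms4a2 and Fcer1a, which basophils and mast cells share, were therefore measured in marrow where the mast cell tryptases had no counts and the chymase few.

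Old KO against sick KD was the comparison with the most calls among the members. Genes of both lineages were higher in old KO: 8 of the 10 members were called higher at an adjusted p under 0.05 (edgeR quasi-likelihood test), and none was called lower. Over all 14470 genes tested, 9.93% were called higher and 8.22% lower. The median log2 fold change was 1.16 over the 10 members and -0.005 over all genes tested. Both mice of old KO lay above both mice of sick KD for 9 members, Cpa3 being the exception, and did so for 32.5% of all genes tested.

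Among the eosinophil granule genes, Prg2 was at 774 and 423 CPM in old KO against 196 and 234 CPM in sick KD. The groups did not overlap, and the log2 fold change was 1.48 ± 0.28 (SE, adjusted p = 0.0170). Epx, the eosinophil peroxidase, was at 229 and 123 CPM in old KO and at 57.6 and 77.2 CPM in sick KD, a log2 fold change of 1.38 ± 0.29 (adjusted p = 0.0233). For both genes the first old KO mouse was far above the second, and each old KO mouse was above each sick KD mouse.

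Of the 3 ribonucleases, Ear6 and Ear1 held the largest differences of all members and Ear2 did not pass the test. Ear6 stood at 96.1 and 40.9 CPM in old KO and at 9.73 and 15.5 CPM in sick KD, 5.41-fold higher (log2 fold change 2.44 ± 0.41, adjusted p = 0.0124). Ear1 stood at 41.1 and 33.9 CPM against 8.60 and 8.54 CPM, 4.38-fold higher (2.13 ± 0.16, adjusted p = 0.00275). Ear2 was at 109 and 54.2 CPM in old KO and 45.1 and 51.2 CPM in sick KD, with a log2 fold change of 0.76 ± 0.30 that did not pass the test (adjusted p = 0.116). The second old KO mouse was close to the sick KD mice for Ear2 and far above them for Ear1 and Ear6. The genes with identical promoter letters, Ear1 and Ear2, thus had unlike values in this comparison. The difference between them was not tested, and both counts carry the uncertainty of shared sequence.

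The basophil proteases differed by less, with a smaller spread. Mcpt8, a protease that marks mouse basophils, was at 83.8 and 82.8 CPM in old KO and 34.9 and 36.0 CPM in sick KD, 2.36-fold higher (log2 fold change 1.24 ± 0.11, adjusted p = 0.00373). Prss34 was at 186 and 192 CPM against 83.5 and 95.0 CPM, 2.12-fold higher (1.08 ± 0.12, adjusted p = 0.00512). In both genes the mice of each group were close together and the groups were far apart. Cpa3, the carboxypeptidase of basophil and mast cell granules, was at 32.5 and 37.4 CPM against 33.3 and 24.7 CPM. Its groups overlapped, and its log2 fold change of 0.27 ± 0.17 did not pass the test (adjusted p = 0.296).

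Both IgE receptor chains were higher in old KO by a smaller amount. Ms4a2 was at 22.1 and 19.0 CPM against 14.2 and 11.6 CPM (log2 fold change 0.68 ± 0.18, adjusted p = 0.0429). Fcer1a, the alpha chain that binds IgE, was at 20.6 and 22.0 CPM against 14.2 and 11.6 CPM (0.73 ± 0.17, adjusted p = 0.0293). Fcer1g, the gamma chain that neutrophils and monocytes also use with other receptors, went the other way, with 191 and 227 CPM in old KO and 285 and 357 CPM in sick KD (-0.61 ± 0.17, adjusted p = 0.0451).

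**Figure D1:**
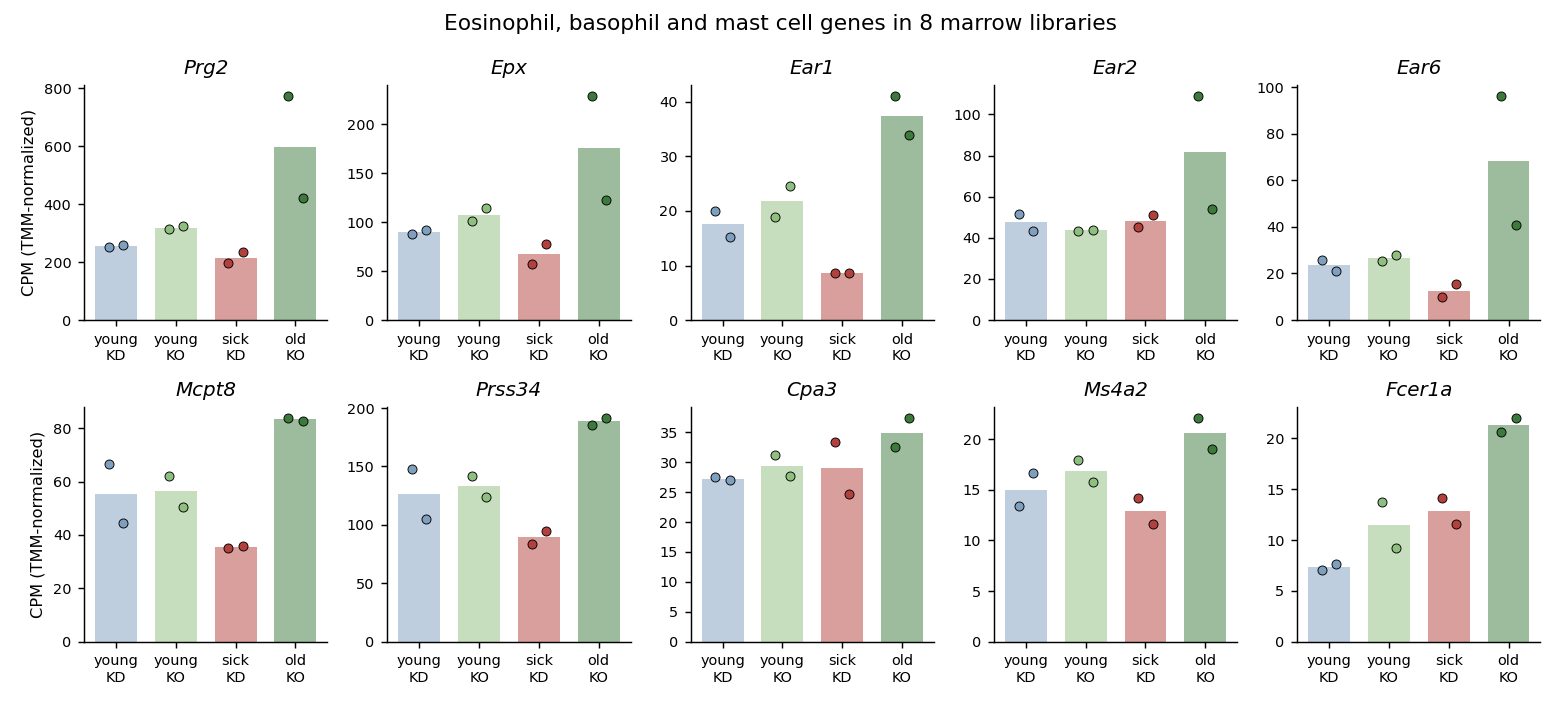
TMM-normalized CPM (vertical axes, each from 0) of the 10 members in the 4 groups of marrow; points are single mice and bars the mean of 2. Both old KO mice lie above both sick KD mice for every gene but Cpa3, and the first old KO mouse stands well above the second for Prg2, Epx, Ear2 and Ear6.

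The 8 calls did not rest equally on each mouse. Without sick KD replicate 1, 4 members passed, and Prg2, Epx, Ear6 and Ms4a2 did not (adjusted p = 0.0685, 0.0885, 0.0517 and 0.0562), with log2 fold changes of 1.36, 1.19, 2.14 and 0.83. Fcer1a did not pass without sick KD replicate 2 or without old KO replicate 2 (adjusted p = 0.0680 and 0.0876), and Ms4a2 did not pass without sick KD replicate 2 or without old KO replicate 1 (adjusted p = 0.105 and 0.168). Ear1, Mcpt8 and Prss34 passed whichever mouse was left out. Without old KO replicate 2, which leaves a single old KO mouse, Ear2 had a log2 fold change of 1.17.

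The markers of other marrow cells also differed between these groups. The 8 erythroid markers summed to 464 and 686 CPM in sick KD and 3279 and 2005 CPM in old KO, and 8 of 8 were called higher in old KO. The 12 neutrophil markers summed to 10560 and 8475 CPM in sick KD and to 4678 and 6000 CPM in old KO, with 5 of 12 called lower in old KO and 1 higher. The 7 B-cell markers summed to 35.3 and 80.0 CPM in sick KD and 108 and 156 CPM in old KO. No marker of these 3 lists was at 0 in all libraries, and the part of these cell types in the members' values was not tested. With the 50 genes of most counts left out of the scaling between libraries, 8 members were again called higher. That setting changes only the scaling and does not address the mix of cells.

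In sick KD against young KD few members were called. Of the 10, 2 were called lower (Ear1 and Ear6) and 1 higher (Fcer1a), near the shares over all 14656 genes tested, of which 11.4% were called lower and 9.45% higher. Ear1 was at 20.0 and 15.1 CPM in young KD, 2.06-fold above sick KD (log2 fold change of sick KD against young KD -1.04 ± 0.18, adjusted p = 0.0149). Ear6 was at 25.9 and 21.0 CPM in young KD, 1.86-fold above sick KD (-0.90 ± 0.24, adjusted p = 0.0429). Fcer1a was at 7.07 and 7.69 CPM in young KD, and sick KD was 1.74-fold higher (0.79 ± 0.18, adjusted p = 0.0278). Fcer1a was in this way the member whose sick KD mice were above the young KD mice and below the old KO mice.

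No other member was called in sick KD against young KD. Prg2 stood at 253 and 258 CPM in young KD and Epx at 87.9 and 91.8 CPM (log2 fold changes -0.26 ± 0.12 and -0.42 ± 0.15, adjusted p = 0.185 and 0.0976). Mcpt8 was at 66.5 and 44.4 CPM and Prss34 at 148 and 105 CPM in young KD (-0.65 ± 0.20 and -0.51 ± 0.18, adjusted p = 0.0594 and 0.0895). Ear2, Cpa3 and Ms4a2 had log2 fold changes of 0.01, 0.08 and -0.23. The 3 calls depended on single mice: none was made without young KD replicate 1, 1 without sick KD replicate 1 and 5 without sick KD replicate 2. Other cells differed as well: 8 of 8 erythroid markers were called lower in sick KD, from a sum of 2863 and 1212 CPM in young KD, and 7 of 7 B-cell markers were, from 648 and 540 CPM, while 5 of 12 neutrophil markers were higher and 1 lower, from 5446 and 6063 CPM. Their part in the members' values was not tested.

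Old KO marrow lay above young KO marrow for every member, yet no member was called. Both old KO mice exceeded both young KO mice in 10 of 10 members and in 18.8% of all 14847 genes tested. In edgeR 0 of 10 passed, where 0.929% of all genes were called in either direction. At an unadjusted p under 0.05, 8 members were higher, against 4.44% of all genes. DESeq2 called 4 members higher (Ear1, Mcpt8, Prss34 and Fcer1a), against 1.15% of all genes. The median log2 fold change was 0.74 over the members and -0.00063 over all genes tested. Ear6 had the largest value, 1.35 ± 0.38 (adjusted p = 0.288), with young KO at 25.5 and 27.9 CPM. Prg2 had 0.90 ± 0.27 (adjusted p = 0.339), with young KO at 314 and 325 CPM. Fcer1a had 0.88 ± 0.20 (adjusted p = 0.177), with young KO at 13.8 and 9.23 CPM. Cpa3 had the smallest, 0.25 ± 0.11 (adjusted p = 0.640), with young KO at 31.2 and 27.6 CPM. Of the other cells' markers, 7 of 7 B-cell genes were called lower in old KO (462 and 567 CPM summed in young KO), 2 of 12 neutrophil genes were lower (6089 and 5743 CPM summed in young KO) and none of 8 erythroid genes was called, and their part was not tested.

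The old KO mice differed from each other in the eosinophil genes and not to the same degree in the basophil genes. The 158-day mouse had 1.83 times the CPM of the 101-day mouse for Prg2, 1.86 times for Epx, 2.01 times for Ear2 and 2.35 times for Ear6, with a lower ratio of 1.21 for Ear1. For the basophil and mast cell members the ratio ran from 0.868 for Cpa3 to 1.16 for Ms4a2, with 1.01 for Mcpt8. No such ratio of a member in the other 3 groups went past 1.59. Other genes also differed between the old KO mice. The erythroid markers summed to 3279 CPM in the 158-day mouse and 2005 CPM in the 101-day mouse, and the neutrophil markers to 4678 and 6000 CPM. The share of all genes with ratios of this size was not counted. When the 101-day mouse was left out, old KO rested on a single mouse. The log2 fold changes of old KO against young KO were then 1.28 for Prg2, 1.09 for Epx, 1.32 for Ear2 and 1.85 for Ear6. With only the 101-day mouse in old KO they were 0.40, 0.19, 0.31 and 0.61. Ear10, a further ribonuclease of this family, had 57 counts in the 158-day mouse and 0 in each of the other 7 libraries, and its sequence is shared with other Ear genes.

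**Figure D2:**
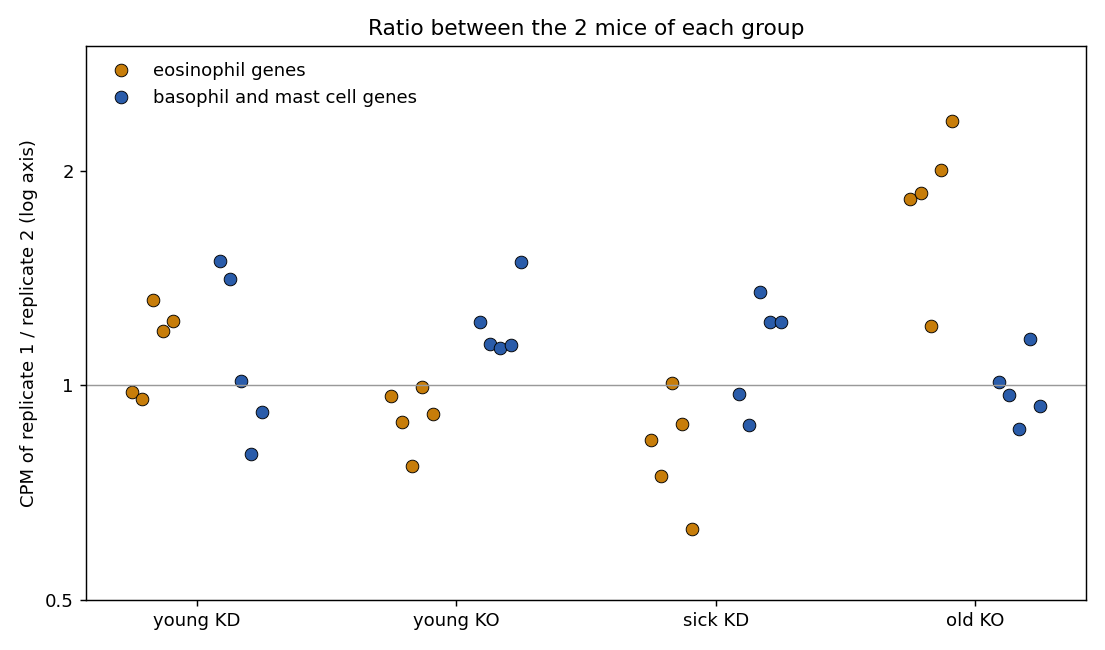
Ratio of the CPM of replicate 1 to that of replicate 2 (log axis) in each group, with 1 point per member; orange points are the 5 eosinophil genes in the order Prg2, Epx, Ear1, Ear2, Ear6 and blue points the 5 basophil and mast cell genes in the order Mcpt8, Prss34, Cpa3, Ms4a2, Fcer1a. In old KO the eosinophil genes lie between 1.21 and 2.35 and the others between 0.868 and 1.16.

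In young KO against young KD no member was called. None of the 10 passed in edgeR, where 0.0404% of the 14839 genes tested were called in either direction, or in DESeq2, where 0.197% were. At an unadjusted p under 0.05, 3 members were higher (Prg2, Epx and Fcer1a), against 1.14% of all genes. Fcer1a had the largest value, a log2 fold change of 0.64 ± 0.21 (unadjusted p = 0.0237, adjusted p = 1), from 7.07 and 7.69 CPM in young KD to 13.8 and 9.23 CPM in young KO. Prg2 had 0.32 ± 0.07 (adjusted p = 1) and Epx 0.26 ± 0.09 (adjusted p = 1), with both young KO mice above both young KD mice in each of these 3 genes and in Cpa3, as in 14.9% of all genes. The Fcer1a value is close to the 0.73 of old KO against sick KD. Mcpt8 and Prss34 overlapped between the groups, at 62.1 and 50.6 CPM and at 142 and 124 CPM in young KO.

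The KO-to-KD difference was larger in old or sick marrow than in young marrow for 4 members. In the interaction, fitted on all 8 mice, Ear1, Ear6, Mcpt8 and Prss34 were called higher, where 4.32% of 15102 genes were. The log2 difference between the contrasts was 1.82 ± 0.26 for Ear1 (adjusted p = 0.0136), 2.25 ± 0.52 for Ear6 (adjusted p = 0.0429), 1.21 ± 0.25 for Mcpt8 (adjusted p = 0.0337) and 1.01 ± 0.23 for Prss34 (adjusted p = 0.0390). Prg2 and Epx had 1.16 ± 0.34 and 1.12 ± 0.37 and did not pass (adjusted p = 0.0734 and 0.0968). Fcer1a had 0.08 ± 0.28 (adjusted p = 0.879), and Cpa3 had 0.16 ± 0.21 (adjusted p = 0.662). Without young KO replicate 1 none of the 10 passed, and 1 did without sick KD replicate 1, old KO replicate 1, young KO replicate 2 or young KD replicate 1. This comparison shares all its mice with the pairwise ones.

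**Figure D3:**
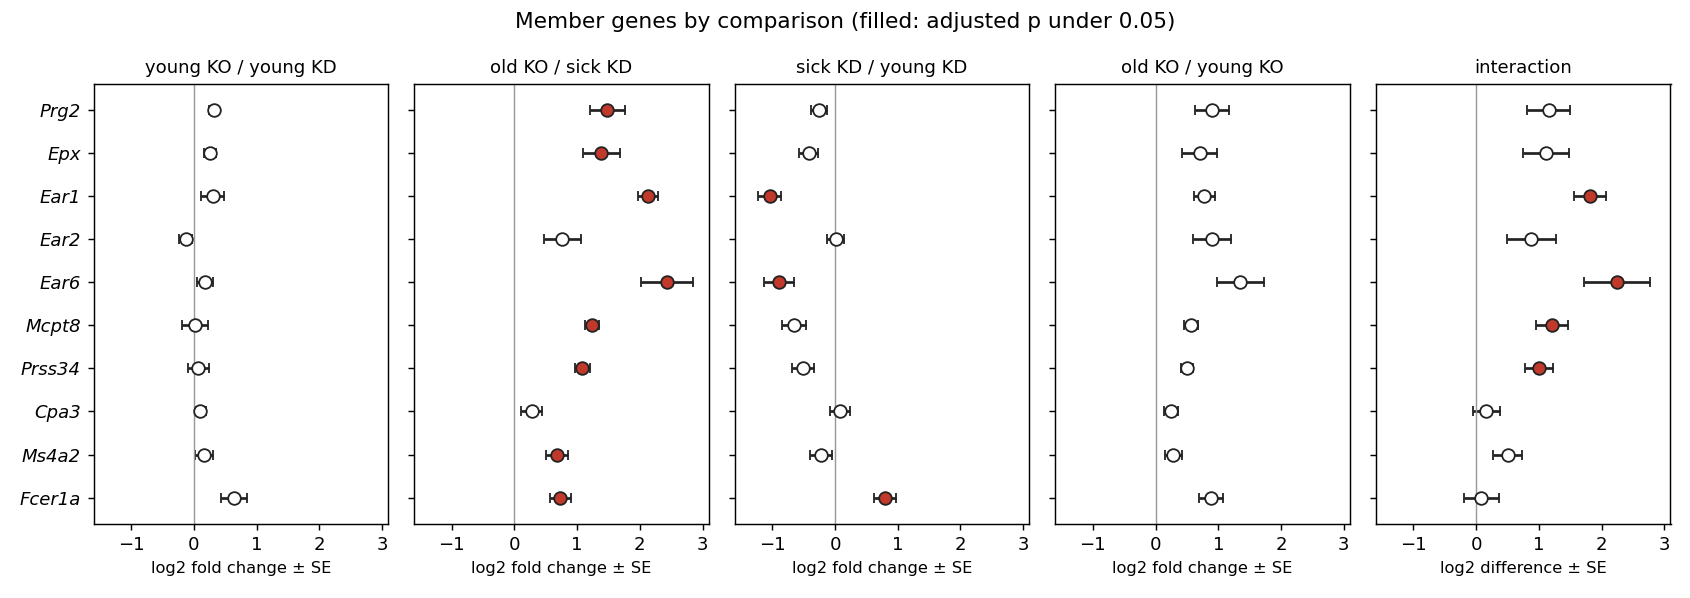
Log2 fold change (points, horizontal axis) with its standard error (bars) for each member in the 4 comparisons of groups and in the interaction, filled where the adjusted p was under 0.05. In old KO against sick KD 8 of 10 are filled, all to the right of 0, and in young KO against young KD and old KO against young KO none is.

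Of 8 further eosinophil genes, 6 could be tested in old KO against sick KD, of which 3 were called higher, none lower and 3 did not pass. The shares over all genes tested were 9.93% higher and 8.22% lower. Ccr3, the receptor that eotaxin binds to draw eosinophils into tissue, was at 18.3 and 12.7 CPM in old KO and 1.98 and 1.81 CPM in sick KD, 8.17-fold higher (log2 fold change 3.03 ± 0.27, adjusted p = 0.00384). Alox15, a lipoxygenase of eosinophils, was at 46.3 and 20.6 CPM against 4.36 and 4.91 CPM (2.85 ± 0.38, adjusted p = 0.0064). Prg3, a second form of major basic protein next to Prg2 in the genome, was at 58.0 and 26.0 CPM against 8.52 and 11.9 CPM (2.04 ± 0.38, adjusted p = 0.0154). These 3 were also lower in sick KD than in young KD, by log2 values of -2.07 ± 0.22, -1.63 ± 0.17 and -0.82 ± 0.19 (adjusted p = 0.00489, 0.00495 and 0.0320).

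The other 3 tested genes of this list did not pass in old KO against sick KD. Siglecf, a surface lectin of eosinophils, was at 11.2 and 7.20 CPM in old KO and 7.19 and 7.65 CPM in sick KD, with overlap (log2 fold change 0.31 ± 0.26, adjusted p = 0.428). Il5ra, the alpha chain of the receptor for interleukin-5, the main growth factor of eosinophils, was at 2.36 and 1.40 CPM in old KO and 0.52 and 0.92 CPM in sick KD (log2 fold change 1.35 ± 0.43, adjusted p = 0.0687). Rnase2a was at 1.41 and 0.33 CPM in old KO and 1.13 and 1.10 CPM in sick KD (-0.40 ± 0.62, adjusted p = 0.682), and was called higher in sick KD than in young KD (1.52 ± 0.37, adjusted p = 0.0354). Its 6 to 40 counts per library limit this value.

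Among 10 further genes used by basophils, 9 could be tested in old KO against sick KD, with 1 higher and 1 lower. Each count is near its share over all genes tested, of 9.93% higher and 8.22% lower. The higher gene was Il1rl1, the receptor for interleukin-33, at 18.8 and 14.7 CPM in old KO and 4.40 and 4.73 CPM in sick KD (log2 fold change 1.88 ± 0.21, adjusted p = 0.00496). The lower gene was Fcer1g, described above. Hdc, which makes histamine, was at 66.1 and 96.3 CPM in old KO and 78.3 and 89.5 CPM in sick KD, and Cd200r3, a basophil surface receptor, was at 9.37 and 8.04 CPM against 8.68 and 6.26 CPM, so that these 2, named after their values were seen, overlapped between the groups. Of the mast cell list, Kit, the receptor for stem cell factor, which progenitors also carry, was at 49.4 and 51.2 CPM against 45.4 and 48.4 CPM (0.10 ± 0.11, adjusted p = 0.543).

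Of 16 transcription factors that steer these lineages, 4 were called higher and 2 lower in old KO than in sick KD. All genes tested had shares of 9.93% higher and 8.22% lower, and the 2 lower factors are near theirs. The 4 higher factors include Gfi1 itself, the altered gene (log2 fold change 1.77 ± 0.38, adjusted p = 0.0234), which leaves Gata1, Zfpm1 and Gfi1b. Gata1, which eosinophils, basophils, mast cells and red cell precursors all use, was at 35.3 and 21.6 CPM in old KO and 8.48 and 6.33 CPM in sick KD, 3.85-fold higher (log2 fold change 1.94 ± 0.28, adjusted p = 0.00763). Zfpm1, the cofactor of GATA proteins known as FOG1, was at 45.0 and 30.9 CPM against 10.9 and 15.1 CPM (1.54 ± 0.23, adjusted p = 0.00928). Gfi1b, the paralog of Gfi1 in red cell and platelet precursors, was at 22.2 and 12.3 CPM against 5.90 and 4.66 CPM (1.71 ± 0.31, adjusted p = 0.0149). Id2, an inhibitor of basic helix-loop-helix factors, went the other way, with 49.2 and 53.4 CPM in old KO and 178 and 147 CPM in sick KD (-1.66 ± 0.14, adjusted p = 0.00346). The other lower gene was Runx1 (-0.50 ± 0.11, adjusted p = 0.0259), a factor of blood progenitors. Gata1, Zfpm1 and Gfi1b move with the erythroid markers given above, and what share of each comes from red cell precursors was not tested.

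Gata2, which early progenitors, basophils and mast cells use, was at 13.8 and 13.7 CPM in old KO and 9.49 and 11.1 CPM in sick KD, with no call (0.42 ± 0.18, adjusted p = 0.144). Cebpe, needed for granule genes of neutrophils and eosinophils, was at 23.7 and 23.6 CPM against 16.6 and 18.0 CPM (0.45 ± 0.14, adjusted p = 0.0663). In both genes the old KO mice lay above the sick KD mice without overlap.

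Of 16 cytokines and receptors that act on these cells, 11 could be tested in old KO against sick KD, with 3 called higher and 1 lower. The shares over all genes were 9.93% and 8.22%, so the 1 lower call is near that share. Ccr3 and Il1rl1, given above, were among the higher ones, with Kitl, the gene of stem cell factor, at 3.91 and 2.73 CPM in old KO and 1.41 and 1.14 CPM in sick KD (log2 fold change 1.38 ± 0.32, adjusted p = 0.0287). The lower gene was Csf2rb2, a mouse beta chain of the interleukin-3 receptor, at 44.2 and 47.2 CPM against 78.4 and 69.6 CPM (-0.69 ± 0.12, adjusted p = 0.0126). Il3 and Ccl11, the eotaxin gene, had 0 counts in all 8 libraries, and Il5 had 1 count in a single sick KD library. Il3, Ccl11 and Il5 were thus not detectable at this depth while their receptors were measured. Other ligands of the list had counts. Il33, the ligand of Il1rl1, had 23 to 47 counts in the young libraries and 1 to 14 in sick KD and old KO. Tslp had 7 to 35.

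**Figure D4:**
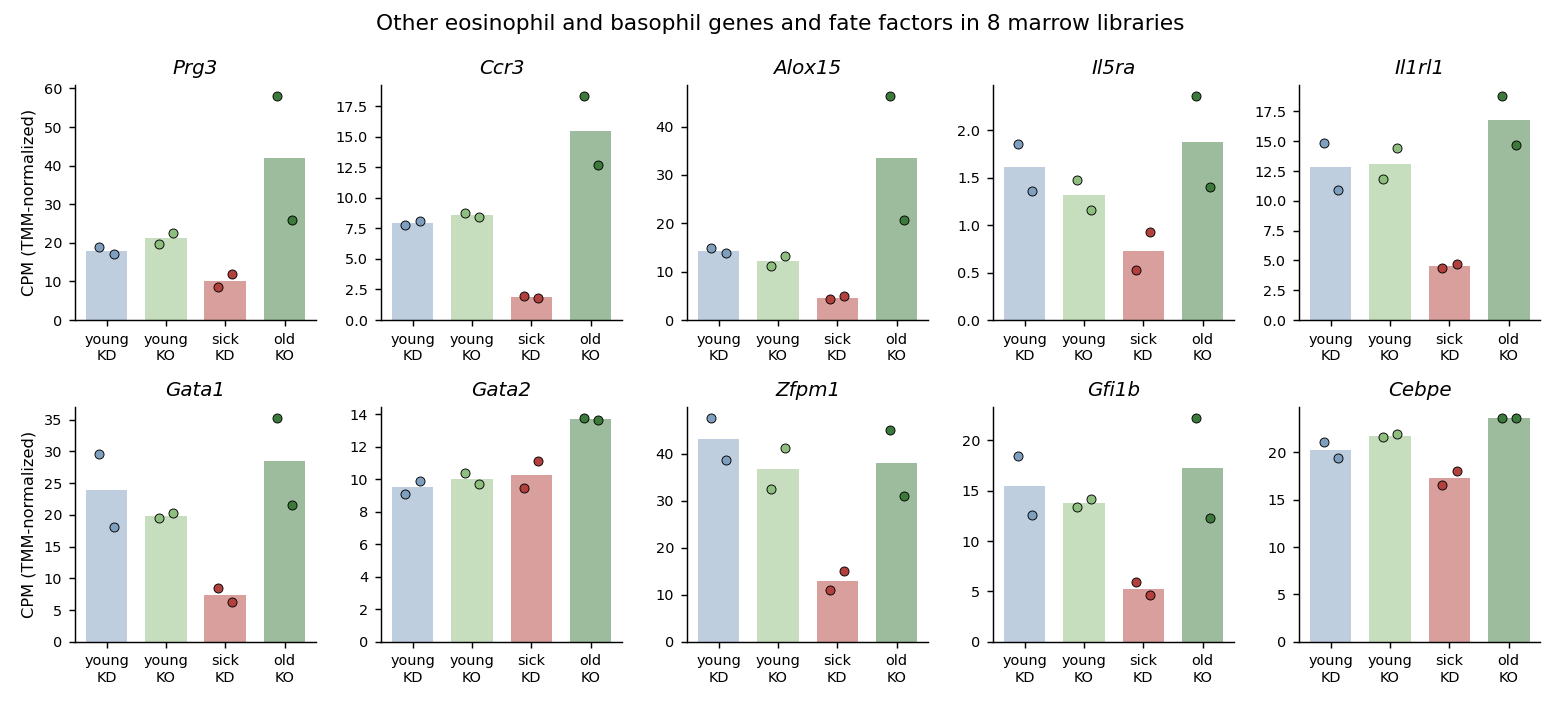
TMM-normalized CPM (vertical axes, each from 0) of 10 related genes in the 4 groups; points are single mice and bars the mean of 2. Both sick KD mice are below all other mice in every gene shown but Gata2. Prg3, Ccr3, Alox15, Il1rl1, Gata1, Zfpm1 and Gfi1b are genes called higher in old KO than in sick KD, so the pattern partly follows from the choice. Id2, Fcer1g, Csf2rb2 and Rnase2a, from the same lists and called higher in sick KD than in young KD, are not shown. The share of all genes with this pattern was not counted.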

How the data were processed

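RNA was measured in total BM of 8 mice. Per the labels and the study's methods, the authors made TruSeq Stranded mRNA libraries, aligned reads with TopHat 2.0.10 to mm10 and deposited raw counts per Ensembl gene from HTSeq, without normalization. The HTSeq strand setting and the Ensembl release are not given in the sources used here. Symbols and coordinates came from GENCODE M21 (GRCm38, the same build as mm10) and were found for 40254 of the 41214 identifiers, and promoters were taken from RefSeq (GRCm38.p6). HTSeq's 5 tallies of unassigned reads were left out.

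Each pair of groups was fitted on its own 4 mice with edgeR 4.0.16 (R 4.3.3; TMM, filterByExpr, quasi-likelihood test), and the interaction on all 8. Adjusted p-values (Benjamini-Hochberg, over all genes tested) under 0.05 were calls, and the SE was derived from the F statistic. The script was tested on simulated data. The labels do not say more of the mice of a group than that they are separate animals.

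The members and lists were chosen with earlier results of these data known. Named were all 10 members, up to 4 genes per related list that passed in old KO against sick KD or sick KD against young KD (lowest p first), and Gata1, Gata2, Cebpe, Il5ra and Kit. Siglecf, Slc18a2, Runx1 and Gfi1 were named after their values were seen. Alternatives were DESeq2 1.42.0, RLE size factors, other count filters, the 50 most counted genes left out of the scaling, and a GC and length trend removed. Further ones were each mouse left out, and all mice fitted together, which for the members' fold changes was added after seeing the data.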

Additional observations from a re-analysis of the deposited data

Results flagged for a closer look

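By the interaction test in edgeR, 4 members and 8 related genes had a KO-to-KD difference in old or sick marrow unlike that in young marrow. Over all 15102 genes tested, 4.32% were called higher and 3.11% lower. The related genes looked at were mostly those already called in old KO against sick KD or sick KD against young KD. The interaction uses the same mice, so their number here is not separate support. The log2 difference between the contrasts was 1.82 for Ear1, 2.25 for Ear6, 1.21 for Mcpt8 and 1.01 for Prss34. With a mouse left out, these values ran from 1.605 to 2.02, 1.508 to 2.736, 0.891 to 1.473 and 0.737 to 1.235. The member calls depended on single mice, as described above. Of the eosinophil and basophil genes outside the members, the log2 difference was 2.91 for Ccr3 (adjusted p = 0.00769), 3.07 for Alox15 (adjusted p = 0.0159) and 1.85 for Il1rl1 (adjusted p = 0.0160). Among the transcription factors it was 2.20 for Gata1 (adjusted p = 0.0252), 1.77 for Zfpm1 (adjusted p = 0.0232), 1.88 for Gfi1b (adjusted p = 0.0375) and -1.37 for Id2 (adjusted p = 0.0080). Csf2rb2 had -0.83 (adjusted p = 0.0230).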

How the results depend on the processing

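In old KO against sick KD, 8 or 9 members were called, and no member changed sign, under each of the alternatives on all 4 mice and in the fit of all 8. With a mouse left out the number ran from 4 to 8. In sick KD against young KD it was 5 with DESeq2, 6 with no filter on low counts and 5 with the GC and length trend removed, and 0 to 5 with a mouse left out. In old KO against young KO it was 4 with DESeq2, 8 with no filter, and 0 to 4 with a mouse left out. In the interaction it was 7 with no filter and 0 to 5 with a mouse left out, and 5 were called without old KO replicate 2. In sick KD against young KD, 1 member was higher and 4, 5 and 4 were lower with DESeq2, no filter and the trend removed. The 3063 calls over all genes there became 3385, 4402 and 4808. The 8 and 7 members with no filter were all higher. Over all genes that setting called 414 higher and 382 lower in old KO against young KO, and 1777 and 1142 in the interaction. Calls over all genes thus rose in these settings too, so more member calls are not by themselves a stronger result. The cause of these changes was not tested. Small differences changed sign. With the trend removed, Ear2 had -0.26 and Cpa3 -0.0411 in sick KD against young KD, and with a mouse left out these genes ran from -0.13 to 0.14 and from -0.15 to 0.28. With a mouse left out in the young mice, Mcpt8 ran from -0.24 to 0.34, Prss34 from -0.16 to 0.34 and Ear2 from -0.25 to 0.00497, and in the interaction Cpa3 ran from -0.0514 to 0.40 and Fcer1a from -0.17 to 0.41. Over all genes, removing the trend turned 1437 higher and 1189 lower calls in old KO against sick KD into 1563 and 2276, 1385 and 1678 in sick KD against young KD into 3013 and 1795, and 653 and 469 in the interaction into 737 and 1428. Calls over all genes in young KO against young KD rose from 6 to 27 with DESeq2 and 119 with no filter, and fell to 3 in the fit of all 8 mice. In old KO against sick KD the 2626 calls became 4325 with no filter and 4200 in the fit of all 8. In old KO against young KO 138 became 383 with DESeq2 and 796 with no filter, and in the interaction 1122 became 1951 and 2919. In a fit without a mouse, the lone mouse left in a group was assumed to vary like the others. Each group rests on 2 animals, which limits the precision of every member.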

Other observations

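Across the 8 libraries, the genes whose log2(CPM + 1) was most like that of Prg2, among 11484 protein-coding genes with a mean CPM of at least 1 and outside the members, were Pccb (Pearson r = 0.983), Arhgef40 (0.981) and Cox6b2 (0.977). Pccb is a subunit of mitochondrial propionyl-CoA carboxylase. Prg2 had an r of 0.982 with Epx and 0.972 with Ear6, and of 0.441 with Cpa3. For Mcpt8 the most alike were Ndrg3 (0.982), Blcap (0.975) and Acss2 (0.971), a cytosolic acetyl-CoA synthetase, and its r with Prss34 was 0.993. These values describe 8 points that share groups of 2 and the low sick KD and high old KO levels.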
